A study of Mus musculus with 4 samples.

Results

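Transcripts that mark fat cells were followed in dissected mouse sciatic nerve, where adipocytes of the epineurium and of the surrounding connective tissue can be carried along with the nerve. The markers were Adipoq, Plin1, Cidec, Cidea, Fabp4, Lpl, Retn, Cfd, Pnpla2 and Lep, 10 genes taken by symbol from the array's annotation, which gave 11 probes out of 45281 for 9 of them, among 19057 genes with a probe. No probe with the symbol Cfd was used here. Nerves came from LKB1-SCKO mice, whose Schwann cells lacked the kinase LKB1, encoded by Stk11, and from control mice that carried the floxed gene but expressed no Cre recombinase. Both genotypes were taken at postnatal day 60, which the study placed ahead of axon loss, on a mixed FVB/C57BL/6 background, with floxed alleles in both, and the Cre driver is not named in the sources used here. Each genotype had 2 arrays. Each array held RNA pooled from 3 sciatic nerves of 3 different mice, so that 6 mice per genotype entered 2 values. The titles of both control arrays, and of neither LKB1-SCKO array, hold the word mixed, which the titles do not explain.

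A white adipocyte stores triglyceride in a large lipid droplet whose surface proteins govern access to it, and it secretes hormones (adipokines) into the blood. Fatty acids reach the cell through lipoprotein lipase on the capillary wall and leave it again through a chain of lipases that begins with adipose triglyceride lipase. In peripheral nerve, fat lies outside the perineurium, mainly in the epineurium. Several of these genes are also used by other cells: Lpl by macrophages, muscle and Schwann cells, Pnpla2 by most tissues, Fabp4 by capillary endothelium and macrophages, and Cidea, in mice, mainly by brown adipocytes.

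Between 19588 and 20627 probes per array had a detection p-value under 0.05, and 10858 genes entered the comparison. Over these genes the log2 values had correlations of 0.986 for the LKB1-SCKO pair and 0.990 for the control pair, where genes are not independent replicates. Of 12 markers listed for Schwann cells 9 had a tested probe, among them Mbp, Pmp22 and Sox10. Stk11 stood at 8.93 and 9.01 in LKB1-SCKO nerves, against 9.70 and 9.83 in control nerves (log2 fold change -0.80, SE 0.133, adjusted p = 0.0448 by limma). That call was lost without any 1 pool (adjusted p from 0.0720 to 0.216). It was also lost with the replicate block (adjusted p = 0.109), with the authors' processed values (0.0625) and without the detection filter (0.0582).

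The pools also differed in sex-linked transcripts, which were looked at after the values had been seen. The brightest probe of Xist, the RNA of the inactive X chromosome, gave an unprocessed signal of 545.6 and 139 in LKB1-SCKO nerves, against 130.8 and 1826 in control nerves, and only LKB1-SCKO 1 and control 2 were above background. The Y-linked gene Eif2s3y gave 495.7 and 853.3 in LKB1-SCKO nerves, against 885.9 and 146.4 in control nerves, and control 2 was not above background. The same held for the Y-linked gene Kdm5d, with a detection p-value of 0.854 in control 2. The labels give no sex, and the part of sex in the adipocyte values below was not tested.

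Probes for 7 of the 9 members with a probe were detected on all 4 arrays. The only probes of Fabp4, which encodes the adipocyte fatty acid binding protein, and of Retn, which encodes the adipokine resistin, were not above background on any array. The unprocessed Fabp4 signal was 155.4 and 144.7 in LKB1-SCKO nerves, against 140.4 and 147.6 in control nerves. For Retn it was 148.4 and 157.9 in LKB1-SCKO nerves, against 142.4 and 146.3 in control nerves. These signals lie at the level of the negative controls, so no fold change is given. A further probe of Plin1 and a further probe of Lpl were likewise undetected on all 4 arrays, while another probe of each gene was detected on all 4. The adipocyte label thus rested on 7 detected members, among them the adipokine genes Adipoq and Lep and the lipid droplet genes Plin1 and Cidec, while Fabp4 and Retn gave no measurable level.

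Promoters of the members are shown for Adipoq, whose profile over the pools was used to look for similar genes, for Lep, which varied most between pools, and for Plin1, the member whose pools did not overlap between genotypes. The sequences are RefSeq's (GRCm38.p6), from 250 bases before to 50 bases after the start site, and 7 of the 10 members had 1 or more. Capitals mark matches to TTNNGCAA, a site of the C/EBP factors of adipocyte differentiation, on either strand. Other motifs were searched for in the same way, AGGTCA, the core site of nuclear receptors, and TATAAA, and no match of any motif overlapped one of another.
Adipoq, chr16:23146286-23146585, + strand: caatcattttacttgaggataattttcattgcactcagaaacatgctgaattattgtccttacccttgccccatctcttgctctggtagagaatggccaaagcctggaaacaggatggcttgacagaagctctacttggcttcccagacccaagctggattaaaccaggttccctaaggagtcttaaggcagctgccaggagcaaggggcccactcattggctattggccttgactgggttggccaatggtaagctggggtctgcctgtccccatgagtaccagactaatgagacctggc
Lep, chr6:29059971-29060270, + strand: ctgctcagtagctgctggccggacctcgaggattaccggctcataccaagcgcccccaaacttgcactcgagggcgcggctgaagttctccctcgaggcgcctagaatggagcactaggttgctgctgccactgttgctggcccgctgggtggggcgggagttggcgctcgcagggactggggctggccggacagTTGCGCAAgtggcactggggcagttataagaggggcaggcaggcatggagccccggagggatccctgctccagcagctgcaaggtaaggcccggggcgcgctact
Plin1, chr7:79732727-79733026, - strand: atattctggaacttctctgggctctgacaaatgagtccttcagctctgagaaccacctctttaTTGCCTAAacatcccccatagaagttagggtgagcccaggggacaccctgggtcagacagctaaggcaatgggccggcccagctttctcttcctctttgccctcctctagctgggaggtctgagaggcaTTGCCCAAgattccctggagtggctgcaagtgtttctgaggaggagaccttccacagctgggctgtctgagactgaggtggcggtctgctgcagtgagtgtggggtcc
The Lep window held 1 match that began 55 bases before the start site, the Plin1 window held 2 at 187 and 58 bases, and the Adipoq window held none. Of the 8 member promoters, 3 held TTNNGCAA (Lep, Plin1 and 1 of 2 Cidec starts), as did 10.8% of all 32851 promoters of this length. AGGTCA was found in 0 of the 8 and in 16.3% of all promoters, and TATAAA in 0 of the 8 and in 13.6%. A match is only a description of the letters in these windows.

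No genotype difference passed the test for any of the 7 members that could be tested. In the limma fit over all genes 0 of 7 passed the threshold, where 3.79% of the 10858 genes did (2.46% higher and 1.34% lower in LKB1-SCKO), and 0 of 7 had an unadjusted p under 0.05, where 22.4% of all genes had. In the fit over single probes the 7 detected member probes gave 0 calls, against 2.52% of the 19732 probes tested. The members' log2 fold changes had a median of 0.52, against 0.012 over all genes, with 6 above 0 and 1 below, while 51.6% of all genes were above 0. With 2 pools per genotype, an exact permutation test of a single gene cannot go below a two-sided p of 0.333. In whole nerve, fewer fat cells and less RNA per fat cell cannot be told apart.

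Between the highest and the lowest of the 4 pools, the adipokine genes Lep and Adipoq had the widest ranges of the members. Adipoq, which encodes the insulin-sensitizing hormone adiponectin, stood at 12.66 and 12.20 on the normalized log2 scale in LKB1-SCKO nerves, against 12.28 and 11.07 in control nerves. The groups overlapped, since control 1 lay above LKB1-SCKO 2, and control 2 was the low sample. The means were 12.43 ± 0.33 in LKB1-SCKO and 11.68 ± 0.85 in control nerves (SD, n = 2 each). The log2 fold change was 0.76 (SE 0.416, limma, adjusted p = 0.347), with a 95% interval of -0.30 to 1.81. In unprocessed signal, Adipoq had 6211 and 4845 in LKB1-SCKO nerves, against 5227 and 2351 in control nerves. Lep, which encodes the satiety hormone leptin, stood at 9.34 and 8.77 in LKB1-SCKO nerves, against 9.55 and 7.34 in control nerves. Here control 1 was the highest and control 2 the lowest of the 4 pools, so the controls enclosed both mutant pools. Its log2 fold change was 0.61 (SE 0.712, limma, adjusted p = 0.659), with an interval of -1.20 to 2.41, which spans 0.437-fold to 5.30-fold.

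The tested members from the CIDE and perilipin families of lipid droplet proteins, Cidec, Cidea and Plin1, also had control 2 as their lowest pool. Of the perilipin genes outside the members, Plin2, Plin4 and Plin5 had control 2 as the lowest pool too, and Plin3 did not. Plin3 had 9.66 and 9.74 in LKB1-SCKO nerves, against 10.1 and 10.17 in control nerves, with LKB1-SCKO 1 lowest. Cidec, which encodes the protein that lets lipid droplets fuse into a large one, had 10.20 and 9.73 in LKB1-SCKO nerves, against 10.06 and 8.78 in control nerves. Its groups overlapped, and its log2 fold change was 0.54 (SE 0.438, limma, adjusted p = 0.512). Cidea, a related droplet protein of brown adipocytes in mice, had 12.35 and 11.84 in LKB1-SCKO nerves, against 12.44 and 11.78 in control nerves. It was the only member below 0, at a log2 fold change of -0.013 (limma SE 0.285, adjusted p = 0.984) with an interval of -0.73 to 0.71. Plin1, which encodes the coat protein that shields the droplet from lipases, had 7.31 and 6.99 in LKB1-SCKO nerves, against 6.92 and 6.35 in control nerves. Both mutant pools lay above both control pools, which was so for 1 of the 7 members and for 29.3% of all genes tested. Both lay below for 0 of the 7 and for 25.8% of all genes. The log2 fold change was 0.52 (limma SE 0.235, adjusted p = 0.272) and did not pass, the groups overlapped with median scaling, and its unprocessed signals, 273.4 and 264.9 in LKB1-SCKO and 247.3 and 213.3 in control pools, were not far above background.

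Both lipase genes of the list varied less than the adipokine genes. Lpl, which encodes the lipase that frees fatty acids from circulating lipoproteins, had 13.84 and 13.38 in LKB1-SCKO nerves, against 13.64 and 12.82 in control nerves. Its log2 fold change was 0.39 (SE 0.314, limma, adjusted p = 0.514), with an interval of -0.41 to 1.18. Pnpla2, which encodes adipose triglyceride lipase, had 13.21 and 12.81 in LKB1-SCKO nerves, against 12.97 and 12.38 in control nerves. Its groups overlapped too, and its log2 fold change was 0.33 (SE 0.251, limma, adjusted p = 0.482). For both genes control 1 lay between the mutant pools and control 2 lay below them.

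**Figure D1:**
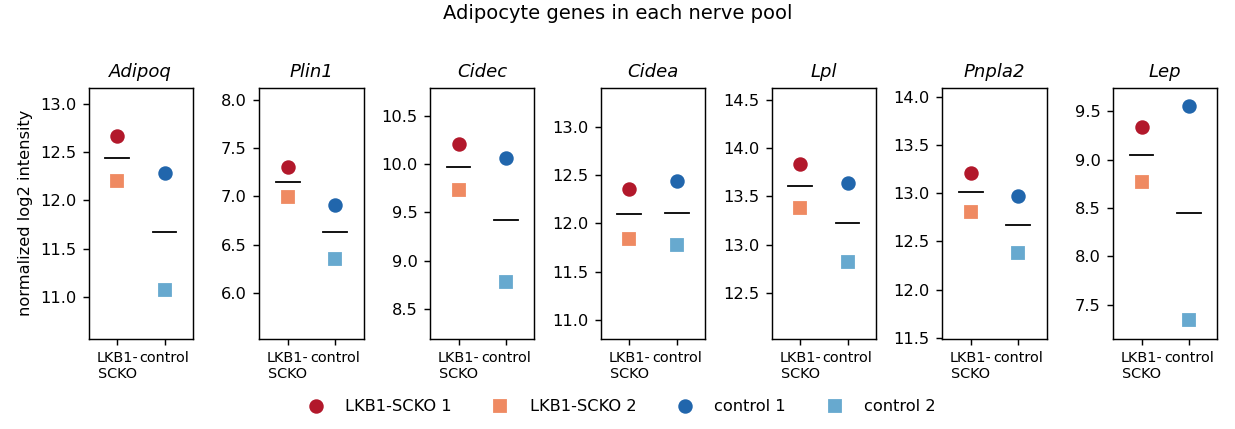
Normalized log2 intensity of the 7 tested adipocyte genes in the 2 LKB1-SCKO pools and the 2 control pools, each panel with an axis of the same span, with black bars at the group means. In all 7 panels control 2 is the lowest point, and the groups are apart only for Plin1.

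The order of the pools was nearly the same across the members. Control 2 was the lowest pool for 7 of 7 members, against 29.4% of all genes tested. For Cidea this was nearly a tie, with control 2 only 0.058 below LKB1-SCKO 2. Its unprocessed signal was 3761.5 in LKB1-SCKO 2 and 3769.4 in control 2, the reverse order. LKB1-SCKO 1 lay above LKB1-SCKO 2 for 7 of 7 members, and the share of all genes with that order was not computed. Adipoq, Cidec, Lpl and Pnpla2, 4 of the 7, had the order LKB1-SCKO 1, control 1, LKB1-SCKO 2, control 2 from high to low, which 3.09% of all genes had. In Cidea and Lep control 1 came first, an order that 2.01% of all genes had. In Plin1 both mutant pools came first, in an order that 9.42% of all genes had. The members share these 4 arrays, so their like order is 1 observation of the pools and not 7.

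For every tested member the 2 control pools differed from each other by more than the genotypes did. This held for 7 of 7 members, against 39.7% of all genes, and the 2 LKB1-SCKO pools differed by more than the genotypes for 3 of 7, against 45.3%. The median difference between pools of 1 genotype was 0.46 in LKB1-SCKO and 0.82 in control nerves for the members, and 0.18 in LKB1-SCKO and 0.15 in control nerves over all genes, all on the log2 scale. The median size of the genotype difference was 0.52 for the members and 0.22 over all genes. For Lep the controls differed 4.62-fold, a gap that 0.129% of all genes equalled or passed, for Cidec 2.43-fold (0.608%) and for Adipoq 2.31-fold (0.682%). Lpl (1.77-fold, 2.26%), Cidea (1.58-fold, 4.40%), Pnpla2 (1.5-fold, 5.90%) and Plin1 (1.48-fold, 6.42%) had smaller gaps. The LKB1-SCKO pools differed by 1.24-fold for Plin1 up to 1.48-fold for Lep, which is less than the control pools did in 7 of 7 members. Over all genes the control pair differed by more than the LKB1-SCKO pair in 44.6%.

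**Figure D2:**
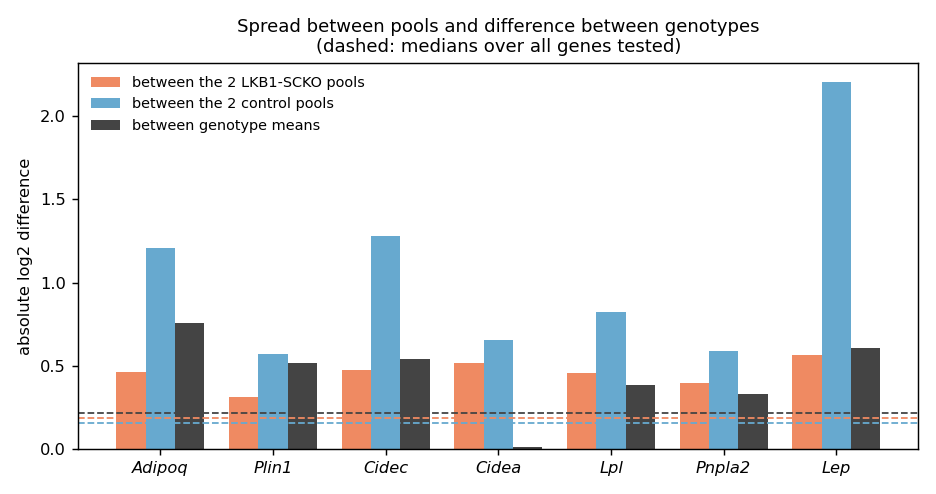
Absolute log2 differences of the 7 tested adipocyte genes between the 2 LKB1-SCKO pools, between the 2 control pools and between the genotype means, with dashed lines at the medians over all 10858 genes. The bar between control pools is the tallest of the 3 for each of the 7 genes, from 0.57 for Plin1 to 2.21 for Lep.

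The size of the genotype difference depended on which control pools were used, and for Cidec, Lpl and Lep its direction changed without control 2. With 2 control pools, leaving out either one moves the control mean in the opposite direction to leaving out the other. The fits without a control pool therefore restate the gap between the control pools given above. Adipoq, Plin1 and Pnpla2 stayed above 0, and Cidea below 0, without control 2. With that pool left out, 3 of 7 members were above 0 and 4 below, with a median of -0.021, and Adipoq stood at 0.15, Cidec at -0.098 and Lep at -0.50. With control 1 left out, 7 of 7 were above 0 with a median of 0.80, and Adipoq stood at 1.37, Cidec at 1.19 and Lep at 1.71. Without LKB1-SCKO 1 the median was 0.30, and without LKB1-SCKO 2 it was 0.67. No member passed the threshold in any of these fits (lowest limma adjusted p = 0.0752, for Lep without control 1).

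**Figure D3:**
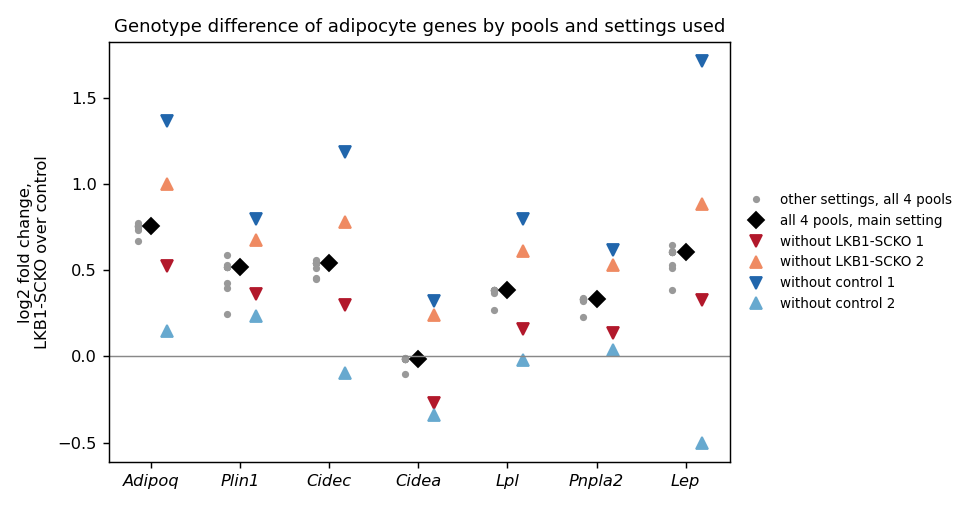
Log2 fold change, LKB1-SCKO over control, of the 7 tested adipocyte genes with all 4 pools in the main setting (black diamonds), with all 4 pools in other settings (grey), and without each pool (triangles). The values without control 2 lie between -0.50 and 0.23 and those without control 1 between 0.32 and 1.71, while the grey points lie between -0.10 and 0.77.

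Other genes of white adipocytes showed the same low pool. Of 24 genes in this list 19 were tested, 0 rose, 0 fell and 19 did not pass the threshold (limma). An unadjusted p under 0.05 was found for 5 of the 19, against 22.4% of all genes. The median log2 fold change was 0.38, with 18 above 0, against 51.6% of all genes. Control 2 was the lowest pool for 16 of the 19, against 29.4% of all genes. The median difference was 0.39 between the LKB1-SCKO pools and 0.83 between the control pools. Orm1, which encodes an acute-phase plasma protein also made in fat, had 9.83 and 9.59 in LKB1-SCKO nerves, against 9.04 and 7.80 in control nerves (log2 fold change 1.29, adjusted p = 0.159). Car3, carbonic anhydrase of fat and muscle, had 12.50 and 11.33 in LKB1-SCKO nerves, against 11.85 and 9.69 in control nerves (1.15, adjusted p = 0.433). Thrsp, a regulator of lipid synthesis, had 11.55 and 11.05 in LKB1-SCKO nerves, against 10.49 and 9.84 in control nerves (1.13, adjusted p = 0.101). Groups overlapped for Car3 and not for Orm1 and Thrsp. Both mutant pools lay above both control pools for 7 of the 19, against 29.3% of all genes. Orm1 passed without control 1 (1.91, adjusted p = 0.0322) and stood at 0.67 without control 2 (adjusted p = 0.288), and Car3 stood at 0.060 without control 2.

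Brown adipocyte genes did not share one order of the pools. Of 12 genes 8 were tested and 0 passed (limma), with 4 above 0, 4 below and a median of 0.049. An unadjusted p under 0.05 was found for 3 of 8, against 22.4% of all genes. Control 2 was lowest for 4 of 8, against 29.4% of all genes. Of these Cox7a1 (12.19 and 11.99 in LKB1-SCKO, 12.24 and 11.71 in control nerves) had the order of Cidea and Lep. So did Cox8b (12.94 and 12.56 in LKB1-SCKO, 13.09 and 12.44 in control nerves). Another pool was lowest for Ppargc1a, Prdm16, Cpt1b and Ebf2. Ucp1, which encodes the uncoupling protein of heat production, had 12.05 and 11.92 in LKB1-SCKO nerves, against 11.47 and 11.13 in control nerves. Its groups did not overlap, with a log2 fold change of 0.69 (SE 0.168, adjusted p = 0.0978), which passed without background correction (adjusted p = 0.0454). Elovl3, an enzyme that lengthens fatty acids, had 6.11 and 6.19 in LKB1-SCKO nerves, against 5.37 and 4.85 in control nerves (log2 fold change 1.04, adjusted p = 0.0629). It was not above background in control 2 (detection p-value 0.260), and its fold change was 0.32 without background correction, so its size is uncertain. Prdm16, a transcription factor of brown fat identity that other cells also use, had 7.49 and 8.0 in LKB1-SCKO nerves, against 8.63 and 8.62 in control nerves (-0.88, adjusted p = 0.0853). Prdm16 passed without LKB1-SCKO 2 (adjusted p = 0.0332).

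**Figure D4:**
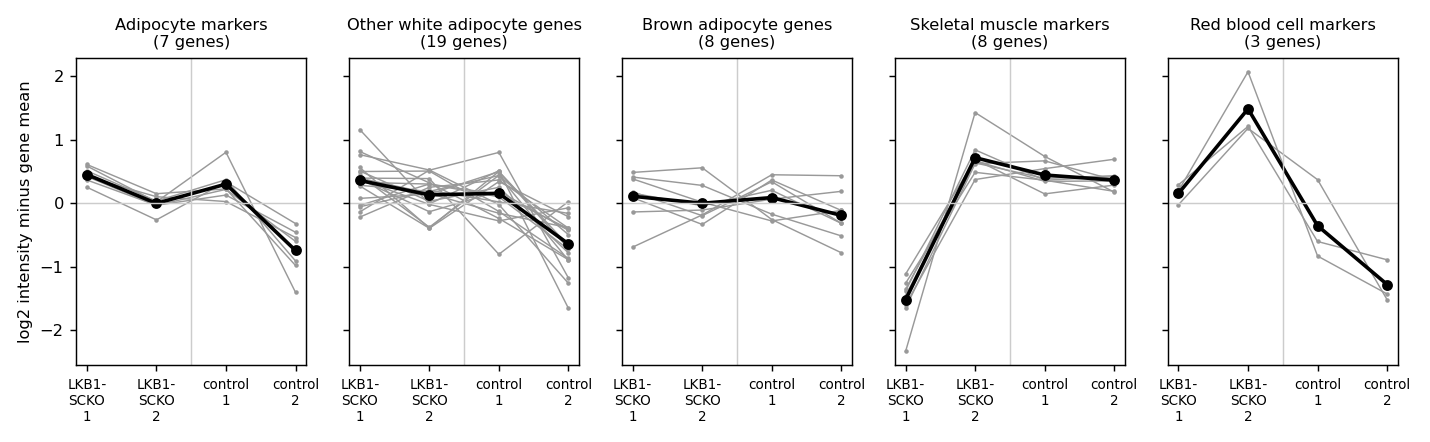
Log2 intensity minus the mean of each gene over the 4 pools, with grey lines for genes and a black line for the mean of the list. On average the adipocyte markers and the other white adipocyte genes are lowest in control 2, the skeletal muscle markers are lowest in LKB1-SCKO 1, and the red blood cell markers are highest in LKB1-SCKO 2 and lowest in control 2.

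Genes that act with the members in lipid handling had fold changes of both signs, and none passed the threshold. Of 15 lipolysis and lipid droplet genes 13 were tested and 0 passed (limma), with 6 above 0, 7 below and a median of -0.047. An unadjusted p under 0.05 was found for 5 of the 13, against 22.4% of all genes. Faah, a hydrolase of fatty acid amides, had 8.62 and 9.09 in LKB1-SCKO nerves, against 9.78 and 9.93 in control nerves (log2 fold change -1.0, adjusted p = 0.0619). Pnpla3, a relative of Pnpla2, stood at 0.78 (adjusted p = 0.172) and G0s2, the inhibitor of adipose triglyceride lipase, at -0.74 (adjusted p = 0.296). Faah passed in 4 of 14 other settings, with adjusted p from 0.0282 to 0.172 over all of them. Of 13 genes that handle lipoprotein lipase and its cofactors 8 were tested and 0 passed (2 unadjusted), with a median of 0.18. Among them Angptl4, an inhibitor of the lipase, stood at 0.47 (adjusted p = 0.152), the lipase activator Apoc2 at 0.44 (0.135) and Gpihbp1, which carries the lipase across capillaries, at -0.47 (0.473).

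Receptors of adipokines had log2 fold changes between 0.030 and 0.37. All 5 tested of 6 were above 0, against 51.6% of all genes, and 0 passed (limma), with a median of 0.16. An unadjusted p under 0.05 was found for 0 of the 5, against 22.4% of all genes. The adiponectin-binding cadherin Cdh13 stood at 0.37 (adjusted p = 0.326), the adiponectin receptor Adipor2 at 0.19 (0.446) and its adaptor Appl1 at 0.16 (0.543). Lepr, the leptin receptor gene, was not tested because its probes were not detected in both pools of a genotype. Of 10 relatives of Fabp4 4 were tested and 0 passed (1 unadjusted), with a median of -0.24. Crabp2, a retinoic acid binding protein, had 8.07 and 7.48 in LKB1-SCKO nerves, against 6.59 and 6.60 in control nerves (log2 fold change 1.18, adjusted p = 0.056). It passed with an offset of 50 (adjusted p = 0.0394) and without LKB1-SCKO 2 (0.0183). Pmp2, the fatty acid binding protein of peripheral myelin, stood at -0.42 (adjusted p = 0.224) and Fabp5 at -0.45 (0.254).

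Around complement factor D, the product of Cfd, 4 of 8 genes of the alternative pathway were tested (limma). Of these 1 fell, against 1.34% of all genes, and 0 rose, against 2.46%. An unadjusted p under 0.05 was found for 2 of the 4, against 22.4% of all genes, and the median was -0.14. The gene that fell was Masp1, a protease locus of the lectin pathway that also gives rise to an activator of factor D. It had 6.77 and 7.02 in LKB1-SCKO nerves, against 8.56 and 8.34 in control nerves (log2 fold change -1.56, SE 0.160, adjusted p = 0.0130). Without control 1 Masp1 missed the threshold (adjusted p = 0.0558). Cfi, an inhibitor protease, stood at 0.36 (adjusted p = 0.221) and the factor B gene Cfb at -0.18 (0.670).

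The genes closest to Adipoq in their profile over the 4 pools were found by the root mean square difference of mean-centred log2 values. H2-Q8 (0.0338), Comp (0.0616), H2-T10 (0.0781), Vnn3 (0.0858), Itih5 (0.0873), Inmt (0.121), Cdkn2c (0.124) and Adig (0.127) were the 8 closest outside the members. H2-Q8 had 7.17 and 6.72 in LKB1-SCKO nerves, against 6.87 and 5.62 in control nerves. Comp, a cartilage and tendon matrix gene, had 8.55 and 8.05 in LKB1-SCKO nerves, against 8.20 and 6.83 in control nerves. Adig, an adipocyte gene, was in the fixed list of white adipocyte genes. H2-Q8 and H2-T10 belong to near-identical families whose probes can bind several members. Among the members Cidec was the nearest to Adipoq (0.111), followed by Lpl (0.231), Plin1 (0.262), Pnpla2 (0.307), Lep (0.364) and Cidea (0.432). With 4 arrays such distances describe these pools only.

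Among the lists for other cells and tissues, the summed linear intensity of the red blood cell and of the mural cell markers was, like that of the adipocyte members, lowest in control 2. By mean log2 intensity, which weights the genes equally, the red blood cell markers (10.23 and 11.56 in LKB1-SCKO, 9.72 and 8.79 in control nerves) and the perineurial markers (9.59 and 9.61 in LKB1-SCKO, 9.48 and 9.20 in control nerves) were lowest in control 2. The mural cell markers were then lowest in LKB1-SCKO 1 (9.24 and 9.71 in LKB1-SCKO, 9.63 and 9.33 in control nerves). The summed linear intensity of the 7 adipocyte members was 37800 and 27640 in LKB1-SCKO nerves, against 33190 and 18890 in control nerves. For 8 of 8 tested skeletal muscle markers it was 11870 and 51210 in LKB1-SCKO nerves, against 42360 and 40130 in control nerves, with LKB1-SCKO 1 the low sample. For 3 of 4 red blood cell markers it was 26060 and 50200 in LKB1-SCKO nerves, against 14130 and 11420 in control nerves. The 8 tested endothelial markers summed to 7576 and 7735 in LKB1-SCKO nerves, against 8337 and 8034 in control nerves. The 8 tested fibroblast markers summed to 66400 and 53670 in LKB1-SCKO nerves, against 64350 and 78340 in control nerves, and control 2 was the highest pool there. The 5 perineurial markers summed to 18720 and 18710 in LKB1-SCKO nerves, against 21280 and 18920 in control nerves. For the 7 tested macrophage markers, cells that also use Lpl and Fabp4, the sums were 11140 and 7470 in LKB1-SCKO nerves, against 4701 and 7699 in control nerves. Of these 7 genes 2 rose and 0 fell (limma), where 2.46% of all genes rose and 1.34% fell. The median log2 fold change was 0.67, with 5 above 0 and 2 below. Those below were Cd163 (-1.25, limma adjusted p = 0.236) and Mrc1 (-0.48, adjusted p = 0.462), so the markers did not share one direction. Cx3cr1, the fractalkine receptor gene, had 9.72 and 10.27 in LKB1-SCKO nerves, against 8.37 and 7.88 in control nerves (1.87, limma adjusted p = 0.0287), and missed the threshold without control 2 (0.0984). Mpeg1, which encodes a pore-forming protein of macrophages, had 10.13 and 9.62 in LKB1-SCKO nerves, against 8.52 and 8.66 in control nerves (1.28, limma adjusted p = 0.0402). Its call held without LKB1-SCKO 2 and was lost without each of the other pools (adjusted p from 0.0670 to 0.135). The 6 mural cell markers summed to 9483 and 13130 in LKB1-SCKO nerves, against 12200 and 8733 in control nerves, where control 2 was again lowest. The 9 tested Schwann cell markers summed to 128500 and 136600 in LKB1-SCKO nerves, against 151200 and 149900 in control nerves. Of the 9, 2 fell and 0 rose (limma), where 1.34% of all genes fell and 2.46% rose. By sign, 4 of the 9 were above 0 and 5 below. Both mutant pools lay above both control pools for 2 of the 9, against 29.3% of all genes. These were Ngfr (0.545) and Mag (0.26), which did not pass. Both lay below for 4 of the 9, against 25.8%. Scn7a, a sodium channel gene, had 7.41 and 7.45 in LKB1-SCKO nerves, against 9.20 and 9.24 in control nerves (-1.79, limma adjusted p = 0.00479), and passed without each pool in turn. Drp2, which encodes a dystrophin-related protein of the myelin sheath, had 12.88 and 13.17 in LKB1-SCKO nerves, against 13.92 and 13.94 in control nerves (-0.91, limma adjusted p = 0.0457). Its call held without LKB1-SCKO 2 and was lost without each of the other pools (adjusted p from 0.104 to 0.193). The calls of Cx3cr1, Mpeg1 and Drp2 were also lost with the replicate block (adjusted p = 0.0800, 0.0946 and 0.105, in that order) and with the authors' processed values (0.0515, 0.0630 and 0.0657). Mpeg1 and Drp2 missed the threshold without the detection filter (0.0563 and 0.0612), and Mpeg1 with median scaling (0.0605). In the other marker lists of cells and tissues 0 genes passed. The part of these tissues in the adipocyte values was not tested.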

How the data were processed

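The members, the gene lists and the tests were chosen with earlier results of these data known. RNA of 4 pools was hybridized, per the labels' protocols, as biotin-labelled cRNA on Illumina arrays. One deposited table has 45281 probes with, per the file headers, the non-normalized intensity and its detection p-value, which moves in steps of 1 in 936. The authors' processed intensities, also deposited, have the same distribution on all arrays and keep the order of the signals within each array. The submitters' processing notes name GenomeStudio (2010). The steps, genome build and slides were not given in the sources used here.

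From the signals, background was corrected with normexp in limma 3.58.1 (R 4.3.3), whose control mean and spread were read off the detection p-values (offset 16), then quantile normalized and put on the log2 scale. Probes with a detection p-value under 0.05 on both arrays of a genotype were kept (19732). Symbols came from the platform annotation (34885 probes with 1 symbol, 18 with several, 10378 with none), updated by gene identifier. The kept probe with the highest mean represented each of 10858 genes. The genotype term of lmFit and eBayes was tested two-sided, Benjamini-Hochberg adjusted at 0.05, with LKB1-SCKO over control. The fit was tested on simulated data. All 10 members were named. From the 7 lists of related genes, those past the threshold and the 3 with the largest change were named, from the marker lists those past the threshold, and the 8 genes most like Adipoq. The only per-gene precision is that of 2 arrays per genotype. P-values weigh the genotype difference against a spread between pools that is partly borrowed from all genes. That spread had 3.29 prior and 2 residual degrees of freedom. Replicate numbers do not pair the pools by any label.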

Additional observations from a re-analysis of the deposited data

How the results depend on the processing

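No adipocyte member passed the threshold in any of the 15 other settings, and the median fold change of the members stayed between 0.38 and 0.56 on the log2 scale with all 4 pools, against -0.021 to 0.80 without each pool. The median difference between pools of a genotype stayed at 0.45 to 0.55 in LKB1-SCKO and 0.66 to 0.83 in control nerves. Control 2 was the lowest pool for 7 of 7 members in 5 settings and for 6 of 7 with median scaling, where the groups of 0 members were apart. Without each pool, fold changes ran from -0.34 to 0.32 for Cidea, -0.098 to 1.19 for Cidec, -0.50 to 1.71 for Lep, -0.021 to 0.80 for Lpl, -0.49 to 0.12 for Cfb and -1.0 to 0.048 for Gpihbp1, each of which changed sign in at least 1 fit, while Adipoq, Plin1 and Pnpla2 did not. Appl1 stood at -0.019 with the mean over probes. The cause was not tested. The count of called genes was 412, and 635 without background correction, 172 with the replicate block and 113 to 454 without each pool. The count of called probes was 497, and 849 without background correction, 803 with an offset of 50, 284 with the authors' processed values, 257 without the detection filter, 252 with the replicate block and 94 to 509 without each pool. The replicate numbers were not shown to pair the pools, since deviations from the group means correlated at -0.172 over genes. Paired crosswise, chosen after seeing the data, they gave 349 called genes and 0 called members. A fit without 1 pool assumes that the lone pool of its genotype varies like the others. Signal limits what can be said of the undetected Fabp4 and Retn and of genes near background, whose fold changes without background correction were 0.24 for Plin1 (0.52 with it), 0.32 for Elovl3 (1.04), 0.63 for Crabp2 (1.18), 0.14 for Apoc2 (0.44) and 0.11 for Cfi (0.36).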

Other observations

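The control pools differed in genes outside the fixed lists as well. Cyp2e1, a cytochrome P450 gene, had 13.23 and 13.04 in LKB1-SCKO nerves, against 12.80 and 10.53 in control nerves. Cyp2f2, of the same family, had 9.97 and 9.77 in LKB1-SCKO nerves, against 9.20 and 7.19 in control nerves. Ccl21a, a chemokine gene of lymphatic vessels and lymphoid tissue with near-identical copies, had 7.90 and 6.44 in LKB1-SCKO nerves, against 7.24 and 4.85 in control nerves. Its value in control 2 was level with that of Elovl3, which was not above background there, so the size of this gap is uncertain. All these values are on the normalized log2 scale, and the genes were chosen after their values were seen. Among the 50 genes by which control 1 most exceeded control 2, each by 1.12 or more on the log2 scale, 9 were adipocyte members or in the list of other white adipocyte genes, and among the first 100 there were 11. Of all 10858 genes tested 26, or 0.239%, belonged to these lists, and this ranking too was chosen after the values were seen. The lists were themselves chosen with earlier results of these data known. The counts therefore restate the gap between the control pools given above and are no separate support for it.

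Other genes were far higher in control 2 than in control 1. Me1, which encodes the malic enzyme that supplies NADPH for lipid synthesis, had 8.24 and 7.23 in LKB1-SCKO nerves, against 4.73 and 8.57 in control nerves. The Me1 value of control 1 was level with undetected Retn on that array (4.74), so the size of this gap is uncertain. The MHC class II genes H2-Aa and H2-Eb1 had 6.96 and 8.03, and 8.78 and 9.36, in LKB1-SCKO nerves, against 7.28 and 9.73, and 8.38 and 10.80, in control nerves. Rab6b had 7.10 and 7.21 in LKB1-SCKO nerves, against 6.38 and 9.67 in control nerves.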
